A study of Mus musculus with 9 samples.

Results

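The comparison described here asks what added glutamate changed in smooth muscle cells whose glutamine use was blocked by DON, and how large a change the data still allow where none was detected. It rests on 6 of the 9 libraries of the series: the 3 of cells given DON with glutamate and the 3 of cells given DON alone, chosen by their labels. The cells are MOVAS, an immortalised line from mouse aortic smooth muscle, labelled C57BL/6 for genotype, and all groups were grown in DMEM with serum, antibiotics and geneticin. The DON group received 50 mM DON for 24 h, the DON plus glutamate group received the same DON with 2 mM glutamate for 24 h, and the 3 control libraries, which enter the shared fit and serve to place the values, received neither. These doses are those of the labels: DON is more often used at micromolar levels, and the product number given for glutamate may be that of a dipeptide of glutamine, which the counts cannot settle. The labels do not say whether the 3 libraries of a group came from separate cultures, so the tests measure only the spread between these libraries.

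Glutamine feeds cells with nitrogen and carbon. Glutaminases such as GLS2 split it to glutamate, which transaminases pass on to the citric acid cycle or use to build other amino acids. DON is a glutamine analogue that binds irreversibly to glutaminases and to the amidotransferases that take nitrogen from glutamine for nucleotides, amino sugars and asparagine. Glutamate supplied from outside can replace the product of glutaminase but cannot serve as the nitrogen donor of the amidotransferases.

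The counts lay mostly on the strand opposite to the named gene, as the rows of abundant smooth muscle and housekeeping genes show. The row of Actb, a cytoskeletal actin, held 4 to 27 counts per library, that of Gapdh 35 to 47, that of the smooth muscle actin Acta2 1 to 14 and that of the smooth muscle myosin Myh11 0 to 2. The rows lying across from a coding exon made up 10.3% of all rows and held 88.0 ± 0.40% of the counts (SD, n = 9 libraries). Rows of this kind that faced 1 coding gene alone, over 50 bp or more, were therefore read as that gene. This gave 4115 genes, of which 2444 had enough counts to be tested. The tested genes held less than the share above, at 943680 of 1342286 counts in control replicate 1. A value covers only the stretch of the gene that its row overlaps. Reads of the gene that a row is named for cannot be told apart from that value. Acta2 and Myh11 had no value of this kind that passed the filter, so the smooth muscle identity of the cells could be checked on Tagln and a few other contractile genes only. Libraries held 1132822 to 1342286 counts. The lowest total belonged to DON plus glutamate replicate 3, and the others held at least 1304980. Most markers of other cell types had no row that could be read. Such a row existed for 4 of 18 endothelial, 3 of 20 leukocyte, 2 of 18 fibroblast and 4 of 16 epithelial genes. Of these, 1 endothelial, 0 leukocyte, 1 fibroblast and 1 epithelial gene had enough counts to be tested. The markers without a row cannot show whether such cells were absent. In bulk RNA, fewer cells of a type and less RNA per cell cannot be told apart.

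Hspa1a, the stress-inducible HSP70 chaperone that refolds damaged proteins, was lower with glutamate. It was the only gene of 2444 called changed at an adjusted p under 0.05 (edgeR quasi-likelihood test with Benjamini-Hochberg adjustment), a share of 0.0409%. No gene was called higher. At an unadjusted p under 0.05, 86 genes (3.52%) had higher and 88 (3.6%) lower values, and the DESeq2 Wald test and limma voom each called Hspa1a alone.

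The value of Hspa1a (mm10, chr17:34969190-34972156, minus strand) comes from a row named Gm20481 that overlaps 564 bases of its exons. In CPM, counts scaled to a common library total, it was 497, 491 and 402 in the control libraries, 492, 461 and 470 under DON, and 303, 317 and 340 under DON plus glutamate. All 3 glutamate libraries lay below all 6 others. Glutamate against DON gave a log2 difference of -0.57 ± 0.10 (SE, 95% interval -0.77 to -0.37, n = 3 libraries a group), a level 1.48-fold lower, with an adjusted p of 0.00452 by edgeR. The DON libraries themselves did not pass the test against control, at a log2 difference of 0.03 with an adjusted p of 0.863. The DON plus glutamate libraries stood at -0.54 against control with an adjusted p of 0.000366, in a comparison that called 5.36% of the genes. The call was lost when DON plus glutamate replicate 1 was left out (log2 -0.53, adjusted p = 0.0616) and when replicate 2 was left out (log2 -0.57, adjusted p = 0.0641).

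Hspa1a has a near-identical neighbour, Hspa1b, which encodes the same chaperone. Of the 1923 coding bases of Hspa1a, 1915 are identical in Hspa1b, or 99.6%. The row reads a coding stretch of 286 bases (chr17:34970003-34970288, minus strand) that differs from Hspa1b at 2 bases, shown in capitals in the GENCODE M21 transcript so that the likeness can be seen. The longest run identical in both genes is 243 bases there.

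Hspa1a coding stretch: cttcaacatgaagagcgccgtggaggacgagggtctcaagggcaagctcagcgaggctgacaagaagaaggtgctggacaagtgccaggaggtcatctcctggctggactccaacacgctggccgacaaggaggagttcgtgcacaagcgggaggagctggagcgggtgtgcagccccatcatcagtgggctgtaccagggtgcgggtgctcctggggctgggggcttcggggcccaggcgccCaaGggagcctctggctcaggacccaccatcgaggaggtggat

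The other stretches read are 187 bases of 5′ untranslated exon, with 3 differing bases, and 91 bases at the stop codon, with 19. Reads from Hspa1b can thus share this value in part, and how the authors treated reads that fit both copies is not given in the sources used here. The 2 genes cannot be told apart in this value, and reads of Gm20481 itself cannot be set apart from it either. The heat shock factor HSF1 is the textbook activator of these genes, and its element is built from GAA units in alternating orientation. The 250 bases before the start of Hspa1a (RefSeq, GRCm38.p6, chr17:34972157-34972406, minus strand) are printed with the inverted pair GAANNTTC in capitals.

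Hspa1a upstream: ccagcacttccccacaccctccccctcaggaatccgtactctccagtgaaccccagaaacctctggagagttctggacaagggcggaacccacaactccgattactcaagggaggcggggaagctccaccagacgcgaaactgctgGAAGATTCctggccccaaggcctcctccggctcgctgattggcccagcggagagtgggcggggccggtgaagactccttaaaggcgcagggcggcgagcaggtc

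One GAANNTTC match was found, starting at base -104 from the start of the gene, and none of TTCNNGAA. Both strings read the same on either strand. The 250 bases before Hspa1b hold the same match at the same place and differ at 3 bases. GAANNTTC occurred in 6.69% and TTCNNGAA in 7.17% of the 32851 RefSeq promoters over the same 250 bases, so a match is a description and not a bound site.

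None of the other chaperones read passed the test. Of 66 listed heat shock proteins and co-chaperones, 14 were tested and 1, Hspa1a, was called lower. A second member, Hspa1l, a testis-type HSP70 encoded next to Hspa1a, had an unadjusted p under 0.05 with a log2 difference of -0.48 (95% interval -0.91 to -0.05, adjusted p = 0.633 by edgeR). The median of the 14 was -0.01, beside a median of -0.00095 over all genes tested. Tcp1, a subunit of the cytosolic chaperonin, had -0.09 (-0.23 to 0.05). Dnajc7, a co-chaperone of HSP70 and HSP90, had 0.06 (-0.11 to 0.23), Stub1, the ubiquitin ligase that tags HSP70 clients, 0.01 (-0.13 to 0.16), and Hsp90b1, the HSP90 of the endoplasmic reticulum and one of the genes with most counts, -0.06 (-0.21 to 0.08). Intervals of 11 of the 14 lay inside a 1.5-fold change in either direction.

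**Figure D1:**
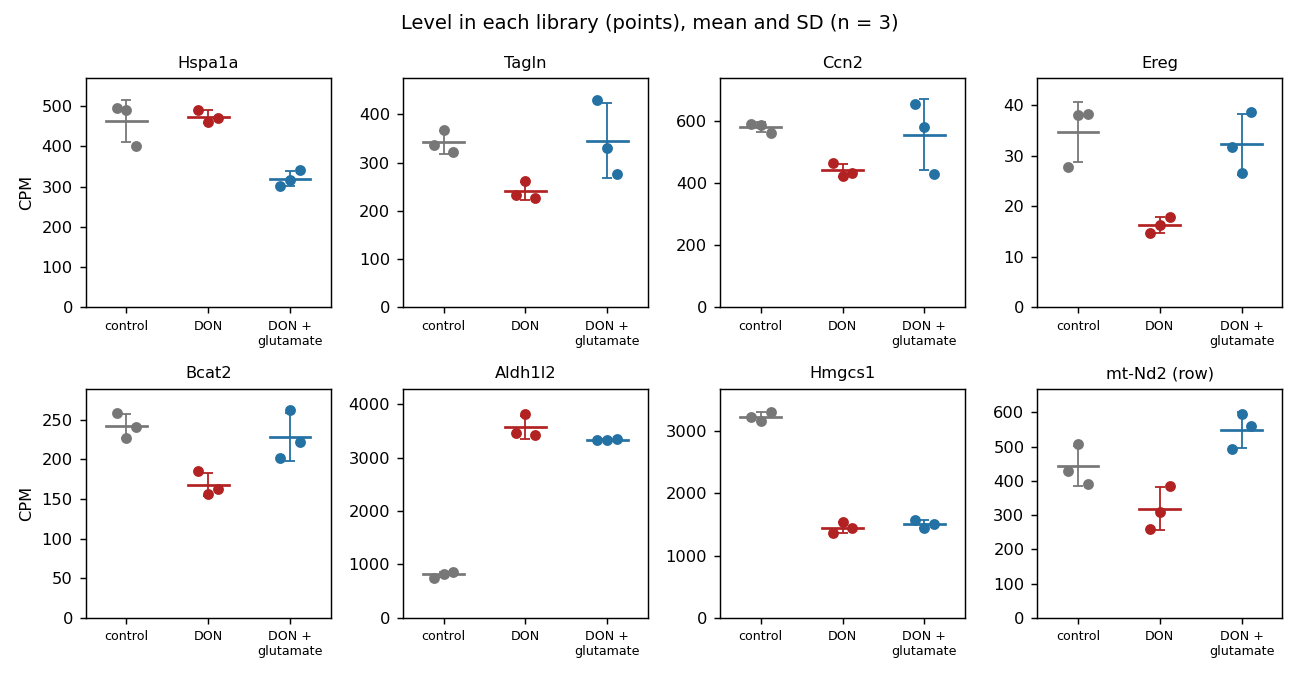
Levels of 7 opposite-strand genes and of the mt-Nd2 row, in CPM on a linear axis from 0, in each of the 3 libraries per group (points), with the mean (line) and SD (bar). Hspa1a was 303 to 340 CPM in the glutamate libraries and 402 to 497 in the 6 others, while Aldh1l2 and Hmgcs1 lay near their DON levels and far from control.

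Across the 2444 genes, most differences were small and the intervals were narrow enough to bound them. The median absolute log2 difference was 0.10 and the median 95% interval reached 0.26 to either side, a factor of 1.20. The whole interval lay inside 0.32 on the log2 scale in either direction for 897 genes (36.7%), inside 1.5-fold for 1767 (72.3%) and inside 2-fold for 2273 (93.0%). Equivalence tests, which ask by 2 one-sided tests whether a difference is smaller than a margin, passed for 752, 1849 and 2336 genes at these margins after Benjamini-Hochberg adjustment. These are intervals and margins for each gene by itself. They do not show that the genes were identical in both groups.

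How tight a bound was depended on the count behind it. Of the 472 genes with a mean of under 30 counts per library, 25 were bounded inside 1.5-fold and 306 inside 2-fold, so a 1.5-fold change of most weakly covered genes could not have been told from none. Of the 645 genes with 100 to 300 counts, 619 were inside 1.5-fold and all were inside 2-fold. All 208 genes with 1000 counts or more were inside 1.5-fold and 188 were inside 0.32 on the log2 scale. Among the 732 genes with a mean of at least 300 counts, 3 had a log2 difference beyond 0.32: Hspa1a, Evl, a regulator of actin filament growth, and Ccn2, a matricellular growth factor. The gene with the highest mean count, Gnas, the stimulatory G protein subunit, had a log2 difference of -0.06 (-0.22 to 0.10).

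**Figure D2:**
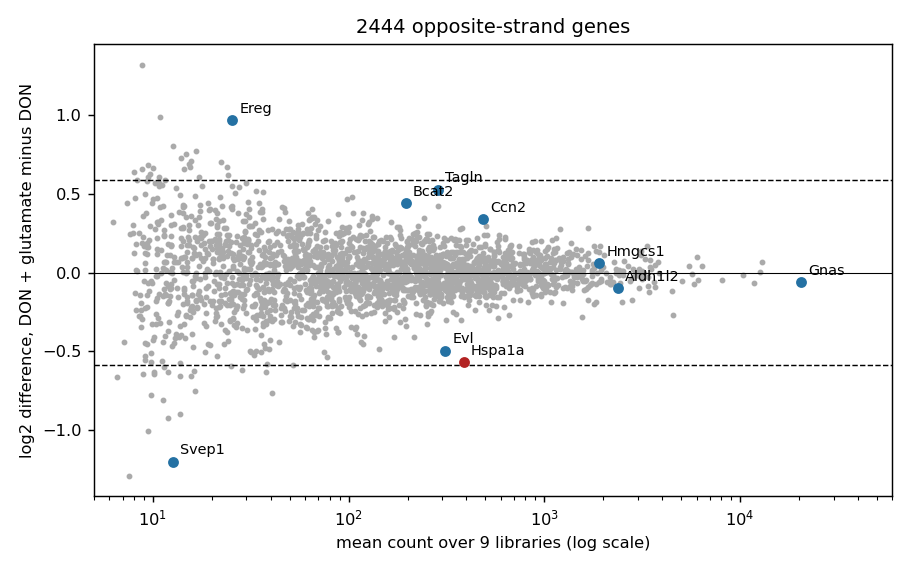
Log2 difference of DON plus glutamate minus DON (vertical) against the mean count over 9 libraries (horizontal, log scale) for 2444 genes. Dashed lines mark 1.5-fold, the red point is Hspa1a, the gene called changed, and blue points are named genes that did not pass the test. The spread narrows as counts grow.

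**Figure D3:**
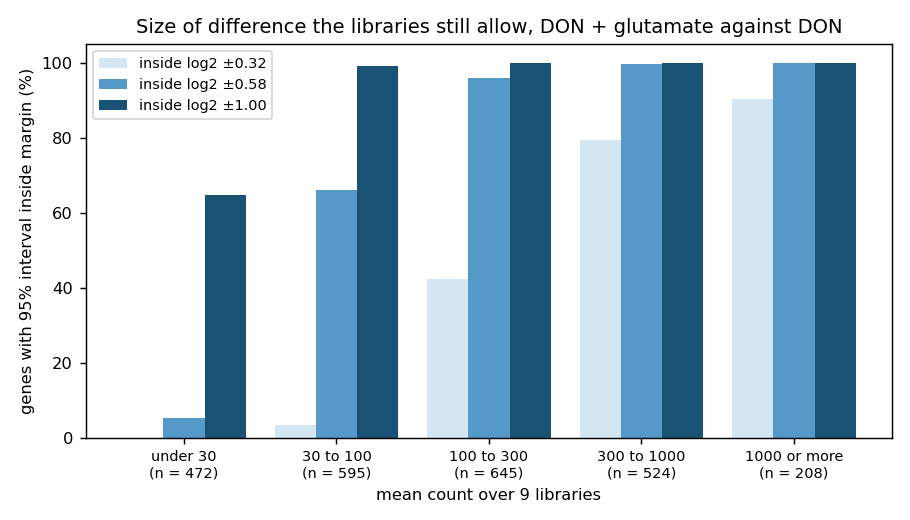
Percent of genes whose 95% interval lies inside a log2 margin of 0.32, of 0.58 (1.5-fold) and of 1 (2-fold) (light to dark bars), by mean count over 9 libraries. Of the genes with under 30 counts 5.30% were inside 1.5-fold, against 100% of those with 1000 or more.

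The amino acid starvation response, which GCN2 and ATF4 drive when charged tRNA runs short, gave no call with glutamate. Of 42 listed genes, 8 were tested, 0 were called in either direction by edgeR, and 2 had a lower value at an unadjusted p under 0.05. The intervals of 6 of the 8 lay inside 1.5-fold, and those of 3 inside 0.32 on the log2 scale. Aldh1l2, a mitochondrial folate enzyme, was 754, 823 and 860 CPM in control, 3470, 3813 and 3427 under DON, and 3336, 3329 and 3344 under DON plus glutamate. The glutamate libraries lay just below the DON libraries and far above control. The log2 difference of glutamate against DON was -0.10 (-0.24 to 0.04, adjusted p = 0.816), beside 2.14 ± 0.07 for DON against control, a comparison that shares the DON libraries and called 283 of 2444 genes (11.6%), 125 higher (5.11%) and 158 lower (6.46%). The glycine transporter Slc6a9 had 0.02 (-0.12 to 0.16) against 1.79 for DON, and the transcription factor Atf5 had 0.09 (-0.12 to 0.30) against 1.72. From other lists, of tRNA synthetases and growth arrest, methionyl-tRNA synthetase Mars had 0.04 (-0.14 to 0.22) against 1.24, and the DNA damage gene Gadd45a had -0.06 (-0.23 to 0.11) against 1.73. For each of these 5 genes, the interval ends far below the size of the DON difference. The values of Slc6a9, Atf5 and Mars come from the rows of Ccdc24, Nup62 and Ddit3.

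The 2 starvation response genes with a lower value were transcription factors. Cebpb was 810, 824 and 821 CPM under DON and 746, 739 and 551 under DON plus glutamate. The 3 glutamate libraries lay below the 3 DON libraries. Groups free of overlap, in either direction, were seen for 291 of all genes (11.9%). Its log2 difference was -0.27 (-0.45 to -0.08) with an adjusted p of 0.468 by edgeR, and -0.14 (adjusted p = 0.725) without DON plus glutamate replicate 3, the lowest library. Ddit3, which encodes the stress factor CHOP, was 183, 210 and 186 CPM under DON and 173, 160 and 152 with glutamate, again without overlap, at -0.25 (-0.48 to -0.02, adjusted p = 0.643). Neither passed the test, and Ddit3 was still far above the 78.2 to 97.4 CPM of control. Cebpb is read from the row of Tmem189. Ddit3 is read from the row of Mars, and Mars from the row of Ddit3.

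**Figure D4:**
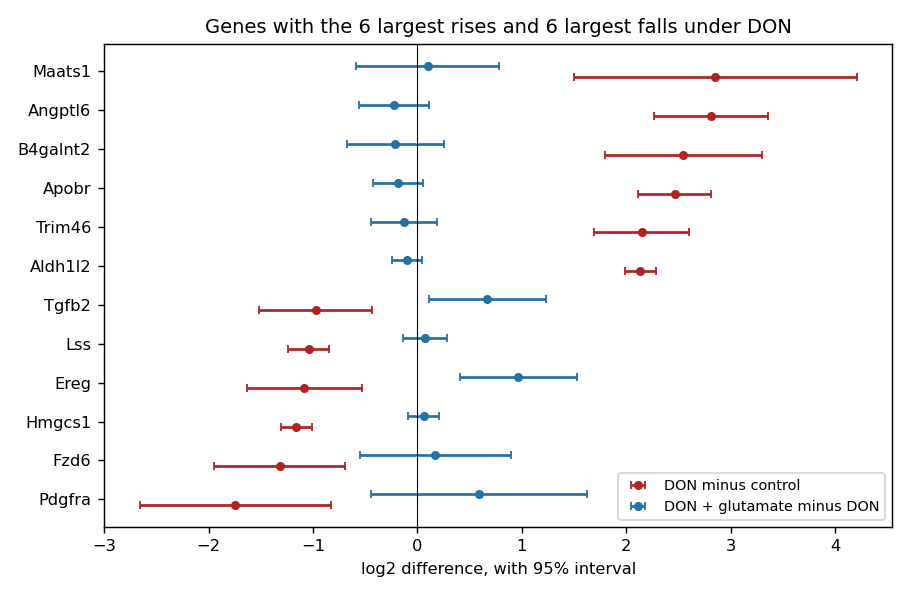
Log2 differences with 95% intervals for the 6 genes with the largest rise and the 6 with the largest fall under DON: DON minus control (red) and DON plus glutamate minus DON (blue). The blue interval includes 0 for all but Ereg and Tgfb2, and none of the 12 was called for glutamate. The 2 differences share the DON libraries.

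The genes DON moved furthest were read against the same margins, and not all of them were bounded. Angptl6, an angiopoietin-like secreted factor, was 7.01-fold higher under DON and had -0.23 (-0.56 to 0.11) with glutamate. Apobr, the receptor for apolipoprotein B48, had -0.19 (-0.43 to 0.05), the ubiquitin ligase Trim46 -0.13 (-0.45 to 0.19) and B4galnt2, a glycosyltransferase, -0.21 (-0.67 to 0.25). Maats1, a cilia protein, at 13.7 to 25.3 CPM under DON, had 0.10 with an interval from -0.59 to 0.78. The intervals of B4galnt2 and Maats1 were too wide to bound at 1.5-fold. Among genes lower under DON, the intervals of Ereg (0.41 to 1.53), Tgfb2 (0.11 to 1.23) and Pdgfra (-0.45 to 1.63) reached past 2-fold. Of the 283 genes DON changed, chosen on DON libraries that both comparisons share, 118 had a glutamate interval inside 0.32 on the log2 scale, 240 inside 1.5-fold and 275 inside 2-fold.

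No sterol gene passed the test with glutamate. Of 40 listed genes of cholesterol synthesis and uptake, 12 were tested, 6 were lower under DON, beside 6.46% of all genes, and 0 were called for glutamate, with 0 at an unadjusted p under 0.05. Hmgcs1, the enzyme that makes HMG-CoA for the mevalonate pathway, was 3230, 3166 and 3310 CPM in control, 1359, 1544 and 1444 under DON, and 1572, 1451 and 1512 with glutamate. The DON and glutamate libraries overlapped, at a log2 difference of 0.06 (-0.09 to 0.21). Lss, lanosterol synthase, had 0.08 (-0.13 to 0.29).

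Genes that handle glutamate and glutamine were also read. Of 53 listed, 7 were tested, 0 were called by edgeR and 2 had a higher value at an unadjusted p under 0.05. GLS2, the enzyme named in the title of the series, had no tested value. Bcat2 is the mitochondrial aminotransferase that moves amino groups between branched-chain amino acids and glutamate. It was 185, 157 and 163 CPM under DON and 201, 262 and 222 with glutamate. The groups did not overlap, as was seen for 11.9% of all genes. The log2 difference of Bcat2 was 0.44 (0.20 to 0.68, adjusted p = 0.355 by edgeR). It stands beside -0.52 for DON against control, which shares the DON libraries. Glul, the glutamine synthetase, was 85.5, 120 and 138 CPM under DON and 118, 170 and 153 with glutamate, with overlap, at 0.36 (0.05 to 0.67, adjusted p = 0.633). Without DON replicate 1, the lowest for Glul, the value was 0.19, and without DON plus glutamate replicate 2, the highest, it was 0.23. Got2, the mitochondrial aspartate aminotransferase, was bounded between -0.15 and 0.15, and Aldh5a1, which completes the breakdown of GABA, was at -0.14 (-0.35 to 0.08).

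Some genes of contraction and matrix signalling had higher values with glutamate than under DON without passing the test. Tagln, the actin-binding protein SM22 of smooth muscle (chr9:45929619-45936058), was 336, 368 and 321 CPM in control, 232, 263 and 227 under DON, and 429, 331 and 275 with glutamate. The glutamate libraries lay above all DON libraries but spread widely. The log2 difference was 0.53 ± 0.12 (0.28 to 0.78) with an adjusted p of 0.204 by edgeR, without DON plus glutamate replicate 3 it was 0.66 with an adjusted p of 0.00701, and without replicate 1, the highest library, it was 0.34 with an adjusted p of 0.440. The DON difference, which shares the DON libraries, was -0.51 (adjusted p = 0.00584 by edgeR). Ccn2 (chr10:24595442-24598683) was 464, 423 and 433 CPM under DON and 655, 579 and 430 with glutamate, so replicate 3 lay among the DON libraries. Its difference of 0.34 (0.12 to 0.55, adjusted p = 0.411) was 0.49 with an adjusted p of 0.00969 without that replicate and 0.20 with an adjusted p of 0.606 without replicate 1. Replicate 3 is also the library of lowest total. Whether its total bears on these values was not tested.

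Of the 48 listed targets of YAP and TGF-beta signalling, 8 were tested and 0 called, and 3 had a higher value at an unadjusted p under 0.05. Besides Ccn2 these were Thbs1 and Tgfb2. Thbs1, a matrix protein that activates TGF-beta, was at 0.19 (0.04 to 0.34, adjusted p = 0.626 by edgeR). The ligand Tgfb2 was at 0.67 (0.11 to 1.23, adjusted p = 0.626 by edgeR). Tgfb2 rested on few counts, with a mean of 23.8 per library. Its mean was 17.0 CPM under DON and 27.1 with glutamate. Thbs1 had 1192, 1157 and 1255 CPM under DON and 1468, 1351 and 1282 with glutamate, against 1845 to 1939 in control. It was still lower than control in the glutamate libraries (log2 -0.47, adjusted p = 3.97e-05). The list median was 0.10. Of 44 contractile genes, 7 were tested, 0 called, and Tagln alone had an unadjusted p under 0.05. Of the 7, 4 had a higher and 3 a lower value, with a median log2 difference of 8.49e-05. That median was the value of the contractile gene Smtn (-0.19 to 0.19). Vcl, the focal adhesion protein vinculin, had -0.05 (-0.19 to 0.10), and the crosslinker Actn1 0.15 (-0.01 to 0.30).

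Beyond the lists described above, the genes with the smallest p in either direction, some of them members of other lists, did not pass the test either. Ereg, an EGF-family growth factor, was 14.8, 16.2 and 17.9 CPM under DON and 31.6, 26.5 and 38.6 with glutamate, beside 27.8 to 38.3 CPM in control. Its log2 difference was 0.97 (0.41 to 1.53, adjusted p = 0.357 by edgeR). It stands beside -1.08 for DON against control (adjusted p = 0.00584), which shares the DON libraries. Svep1, a large extracellular matrix protein of vessels, was 16.9, 21.6 and 15.8 CPM under DON and 7.38, 9.54 and 6.23 with glutamate, at -1.20 (-1.96 to -0.44, adjusted p = 0.359). Both rest on few counts. A lack of overlap between the groups was a condition for naming the genes of this paragraph and the next. Evl was 407, 400 and 388 CPM under DON and 198, 322 and 331 with glutamate, at -0.49 (-0.75 to -0.24, adjusted p = 0.347). Replicate 1 was the lowest, and without it the value was -0.29 (adjusted p = 0.446). Its row is the coding gene Degs2, whose own reads could not be told apart from it. Prdx2, a peroxide-removing peroxiredoxin, was 1610, 1399 and 1367 CPM under DON and 1683, 1801 and 1851 with glutamate, at 0.29 (0.12 to 0.45, adjusted p = 0.357).

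Further genes of this group were not called. Arhgef12, an exchange factor that activates RhoA, was 1822, 1871 and 1938 CPM under DON and 1492, 1527 and 1606 with glutamate (log2 -0.28). The giant cadherin Fat1 had -0.41, Cercam, a glycosyltransferase-like protein, 0.42, and Tmem208, a protein of the endoplasmic reticulum, 0.48. Chchd10, a protein of the mitochondrial intermembrane space that DON raised by 0.95, had -0.59 (-0.96 to -0.21, adjusted p = 0.411). Slc7a7, part of an exporter of cationic amino acids, was 66.5, 49.7 and 60 CPM under DON and 16.9, 47.7 and 39.9 with glutamate, at -0.76 (-1.25 to -0.27, adjusted p = 0.411), and at -0.42 (adjusted p = 0.606) without DON plus glutamate replicate 1. With all libraries, the adjusted p of these genes lay between 0.355 and 0.411. Prdx2 and Slc7a7 are read from the rows of Rnaseh2a and Oxa1l.

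The remaining lists gave no call. Over the 34 lists, 284 of 1547 distinct genes were tested, 1 was called, and 215 (75.7%) had an interval inside 1.5-fold, beside 72.3% of all genes tested. Groups without overlap were seen for 38 of the 284 (13.4%), beside the 11.9% of all genes. The 28 lists with at least 3 tested members had medians from -0.05 to 0.12. The largest was that of cell cycle genes, with 32 of 116 tested, a median of -0.04 and 22 inside 1.5-fold. Of 79 splicing factors 21 were tested, and 3 had a higher value at an unadjusted p under 0.05: Hnrnpd (0.28, 0.07 to 0.49), the cold-shock protein Rbm3 (0.20, 0.01 to 0.40) and Srsf1 (0.19, 0.00 to 0.39). Of 84 nuclear-encoded respiratory chain genes 14 were tested, with 12 inside 1.5-fold and a median of 0.01. Interferon-stimulated genes, of which DON lowered 5 of 12 tested, beside 6.46% of all genes, had a glutamate median of 0.01 with 10 inside 1.5-fold.

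The mitochondrial genome was not covered by the opposite-strand reading and was tested on its own rows. It is transcribed from both strands as long precursors that are cut into messenger, ribosomal and transfer RNA, and all protein genes but Nd6 lie on the strand annotated plus. Over the 4731 rows tested under their own names, 7 were called (0.148%), 5 higher (0.106%) and 2 lower (0.0423%), with 318 (6.72%) at an unadjusted p under 0.05. The 5 higher rows were all mitochondrial and all annotated on the plus strand: mt-Nd2, mt-Nd1, mt-Cytb and the transfer RNA rows mt-Tt and mt-Ti. The 2 lower rows were Gm20481, which is the Hspa1a value, and H2-T24, the row of a class I-like histocompatibility gene that lies in an intron of A930015D03Rik. H2-T24 was 60.9, 65.2 and 69.5 CPM in control, 86.8, 95.9 and 84.9 under DON, and 58.0, 50.6 and 60.1 with glutamate. The DON and glutamate groups did not overlap. Its log2 difference of glutamate against DON was -0.67 (adjusted p = 0.0258 by edgeR), a call kept in 9 of 18 ways of processing. DON against control, which shares the DON libraries, gave 0.45 (adjusted p = 0.0360 by edgeR), where 6.32% of rows were called. DON plus glutamate against control gave -0.22 (adjusted p = 0.480 by edgeR).

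If the counts fall on the opposite strand here as they do elsewhere, these rows do not hold messenger RNA of the named genes but RNA of the other strand, which encodes Nd6 and some transfer RNAs. The counts were uneven over the plus rows. The rows mt-Co2, mt-Co3 and mt-Atp6 held 0 to 3 counts per library, whereas mt-Co1 held 173 to 484, mt-Nd4 1243 to 2393 and mt-Nd5 3839 to 7289, and which strand these come from was not tested. The row of mt-Nd2, a complex I subunit (mm10, chrM:3914-4951), held 430, 506 and 392 CPM in control, 260, 309 and 385 under DON, and 493, 595 and 561 with glutamate, on the scale of all rows. All glutamate libraries exceeded all DON libraries. The log2 difference was 0.79 ± 0.12 (0.55 to 1.03), a level 1.73-fold higher, with an adjusted p of 0.00202 by edgeR. DON against control, which shares the DON libraries, gave -0.48 (adjusted p = 0.0127 by edgeR), where 6.32% of rows were called. DON plus glutamate against control gave 0.31 (adjusted p = 0.147), where 3.23% were called. The row was called in all 18 ways of processing that were run on rows.

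The other 4 mitochondrial calls were lost when either of 2 libraries was left out, DON plus glutamate replicate 2 or DON replicate 3, and mt-Nd2 was then the only row called. All 4 were also lost under the DESeq2 Wald test, and mt-Cytb, mt-Nd1 and mt-Ti were lost under limma voom and in a fit of only the 6 libraries compared. The mt-Cytb row was 198, 221 and 168 CPM under DON and 274, 713 and 336 with glutamate, and replicate 2 stood far above the others. Its log2 difference of 1.18 (adjusted p = 0.0154) was 0.63 without that library (adjusted p = 0.0769). The mt-Tt row, at 56.1, 72.7 and 60.6 CPM under DON and 95.7, 231 and 145 with glutamate, went from 1.32 to 0.92 (adjusted p = 0.0684). The mt-Nd1 row was 102, 111 and 57.6 CPM under DON and 143, 266 and 144 with glutamate, again with replicate 2 highest. The mt-Nd1 row went from 1.04 to 0.67 (adjusted p = 0.357) and the mt-Ti row from 1.16 to 0.92 (adjusted p = 0.302). Without DON replicate 3 the adjusted p was 0.176 for mt-Cytb, 0.0673 for mt-Tt, 0.300 for mt-Nd1 and 0.236 for mt-Ti. The mt-Ti call was also lost without DON replicate 1 (adjusted p = 0.0515) and without DON plus glutamate replicate 1 (adjusted p = 0.0660).

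The strands differed in their values. All 15 tested rows annotated plus had a positive difference, with a median log2 of 0.70 and 8 without overlap between groups, beside 11.5% of all rows. The 15 stayed positive in every one of up to 18 ways of processing. Of the 9 annotated minus, 4 were positive, the median was -0.06 and none was free of overlap. Neighbouring rows are cut from the same precursors and are not independent of each other. The summed plus rows were 8060, 8196 and 6515 CPM under DON and 8053, 10604 and 11339 with glutamate, so the sums overlapped. The plus rows with most counts had small differences: the mt-Nd5 row had 0.32 (0.02 to 0.61, adjusted p = 0.711) and the mt-Nd4 row 0.32 (0.09 to 0.54, adjusted p = 0.540). The mt-Nd6 row, annotated minus, had -0.09 (-0.33 to 0.16). The minus row furthest from 0 was the transfer RNA row mt-Ts1, at 1869, 2118 and 1573 CPM under DON and 714, 1516 and 1672 with glutamate, a log2 difference of -0.51 (-0.90 to -0.13, adjusted p = 0.576).

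**Figure D5:**
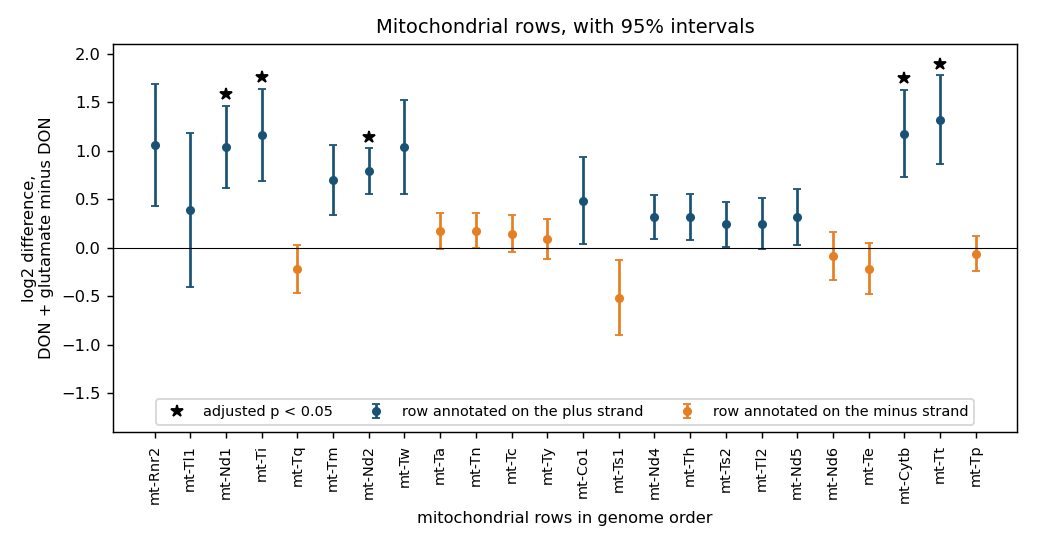
Log2 difference of DON plus glutamate minus DON with 95% intervals for the 24 mitochondrial rows tested, in genome order, annotated plus (blue) or minus (orange), with stars at adjusted p under 0.05. The 15 plus rows all lie above 0, and the 9 minus rows lie on both sides of it.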

How the data were processed

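RNA sequencing of 9 MOVAS libraries, 3 per group by title, was analysed. The authors deposited raw read counts, as whole numbers, for 53379 rows. Tools listed in the submitters' processing notes are STAR and HTSeq, with the build mm10, and no versions. The strand setting of the counting is not given in the sources used here. Rows matched GENCODE M21 for 53274 of 53379. A row stood for a coding gene where it overlapped exons of that gene alone across the strands, over 50 bp or more, and the highest row was kept per gene.

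Counts were fitted with edgeR 4.0.16 (R 4.3.3) over all 9 libraries, with its default low-count filter, TMM scaling and two-sided quasi-likelihood tests. The fit left 6 residual degrees of freedom. The spread of each gene was then moderated by that of the other genes. Tests, intervals and equivalence tests of this fit used the resulting total degrees of freedom, with a median of 29.5 over the opposite-strand genes. A gene was called at a Benjamini-Hochberg adjusted p under 0.05. DESeq2 1.42.0, limma voom (limma 3.58.1), other filters and scalings, a replicate block and each library left out were alternatives. The code was tested on simulated counts. CPM of opposite-strand genes and of rows use different totals.

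Named genes were those called; the 10 smallest p per direction with at least 5 CPM, no overlap and no predicted name; the 3 highest-count members of each list; the 6 largest rises and 6 largest falls under DON; the 5 highest counts; and a fixed set. Named outside this rule, after their values were seen, are Hspa1l, Hnrnpd, Rbm3, Srsf1, Cyp21a1, the uncalled mitochondrial rows and the rows that check the strand. The comparison, lists and rule were chosen with earlier results of these data known. Totals count only assigned reads, so depth is the count per row, and rows of few counts are imprecise.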

Additional observations from a re-analysis of the deposited data

How the results depend on the processing

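No called result changed sign under any alternative run. One gene was called at adjusted p under 0.10 too. Without a filter on low counts 4 genes were called (Hspa1a, Evl, Tagln and Cyp21a1) and 15 rows. The DESeq2 Wald test called 2 rows, limma voom 3 and a fit of only the 6 libraries compared 3; mt-Nd2 was among them each time. Leaving out 1 library gave 0 to 3 genes, 1 to 11 rows and 1632 to 1769 genes bounded inside 1.5-fold. The gene count was 0 without DON plus glutamate replicate 1 or 2, 2 without DON replicate 2, and 3 without DON plus glutamate replicate 3 (Hspa1a, Tagln and Ccn2). Of the rows, 1 was called without DON replicate 3 and 1 without DON plus glutamate replicate 2, and 11 without DON plus glutamate replicate 3. H2-T24 was called in 9 of 18 settings. The cause was not tested. Deviations from the group mean had correlations of -0.09, -0.02 and -0.03 between same-numbered DON and DON plus glutamate libraries. With 3 libraries a group, these values cannot show whether same-numbered libraries were made together. With the number as a replicate block 1 gene, 6 rows and 1752 bounded genes were found. With an overlap of at least 200 bp, 1302 of 1722 genes were bounded inside 1.5-fold. Of the genes with a mean of under 30 counts, 5.30% could be bounded at that margin.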
